A study of Mus musculus with 6 samples.

Results

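Fatty acid oxidation in the liver was followed through 37 genes of the 49315 in the count table. They are acyl-CoA synthetases, carnitine acyltransferases and the enzymes of mitochondrial and peroxisomal beta- and alpha-oxidation. They were chosen by name and not by a cut on measured values, but with earlier results of these data known. All 37 were found in the table under their symbols. RNA was sequenced in bulk from hepatocytes of male C57BL/6J mice (n = 3) that received plasmids by hydrodynamic injection at 8 weeks of age. The mice got 20 µg of a plasmid whose Ttr promoter transcribes miR-206 with GFP, and 0.8 µg of a second one for the Sleeping Beauty transposase. Liver perfusion and sorting followed 4 weeks later, and gave 3 control libraries (GFP-negative cells, genotype labelled Wild-type) and 3 miR-206 libraries (GFP-positive cells, genotype labelled miR-206 overexpression).

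By the design text both fractions came out of the injected animals, so the control cells saw the injection as well, whereas the sample labels give "Empty vector" as the control treatment. Uptake and expression of the plasmid, GFP and the sorting gate differ between the groups together with miR-206, and their effects cannot be told apart. Ttr is itself a hepatocyte gene, so the transgene marks cells in which that promoter is active. Mir206 was counted at 0 in every library, and since the kit reads mRNA this does not measure the mature microRNA. Nothing in the labels ties a library to an animal, so p-values measure the spread between these libraries only. In bulk RNA, fewer cells of a type and less RNA per cell cannot be told apart.

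Long-chain fatty acids are activated to acyl-CoA at membranes, handed to carnitine for entry into mitochondria, and shortened by repeated rounds of dehydrogenation, hydration, a second dehydrogenation and thiolysis. Peroxisomes run a parallel chain that starts with an oxidase and handles very long, branched and bile acid precursor chains, and alpha-oxidation removes a single carbon from methyl-branched acids first. In liver this flux supplies energy and ketone bodies during fasting, and many of its genes are targets of the nuclear receptor PPARA.

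The libraries differed in quality along with their group. Controls held 8966590 to 15244017 counts and miR-206 libraries 4157947 to 5724329, and mitochondrially encoded genes took 9.16 to 36.0% and 11.3 to 63.8% of them. Olfactory and vomeronasal receptor genes, which hepatocytes are not known to express, were read here as a background: they had 1.22 to 2.95 counts per exonic kb in controls and 3.60 to 5.31 in miR-206 libraries. Control 1 stood apart from the other controls, with a correlation of log2 CPM (counts scaled to library size) of 0.857 and 0.859 with them against 0.97 between those, and the highest mitochondrial share of the 3. Summed CPM of 29 hepatocyte identity markers was 85470 to 161100 in controls and 32950 to 150600 in miR-206 libraries, which overlap. Of these 29 markers 20 fell and none rose as deposited, and 6 fell and 14 rose of 27 after the background subtraction described below. Summed CPM of 14 Kupffer cell markers was 542 to 1293 and 99.2 to 146, and that of 7 cholangiocyte markers 538 to 2564 and 50.2 to 200.3. The cholangiocyte sum is mostly Spp1, with 21072, 7471 and 8289 counts in controls 1 to 3 against 1180, 457 and 537 for Krt19, the next. Epcam (-0.77) and Cftr (1.11) of that list were not called as deposited. All 14 Kupffer markers and 4 of 6 cholangiocyte markers tested fell, no marker of these lists was at 0 in all miR-206 libraries, and Clec4f, a defining Kupffer gene, had 597, 3747 and 3497 counts in controls and 52, 34 and 46 in miR-206 libraries. As deposited, 12 of 12 sinusoidal endothelial, 5 of 10 stellate, 2 of 7 neutrophil and 3 of 8 red cell and platelet markers fell and none rose, and of 15 lymphocyte markers 5 fell and 4 rose. Over all 24382 genes tested 29.6% fell and 25.8% rose. After subtraction 9 of 14 Kupffer markers fell and none rose, and 2 of 11 endothelial markers fell and 3 rose. Of 4 stellate markers 1 fell and 1 rose, of 3 neutrophil markers 1 rose, and the 1 lymphocyte marker tested fell. None of 2 cholangiocyte and 5 red cell and platelet markers passed, where 15.7% of 4298 genes fell and 19.5% rose. The part of other cells, depth and mitochondrial share in the values below was not tested.

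Because the transgene carries a microRNA, the members were searched for its binding sequence, and this is where it lies. Mature miR-206-3p is encoded at chr1:20679055-20679076 (+ strand, GRCm38.p6, RefSeq), and its seed, bases 2 to 8, is in capitals here.
miR-206-3p: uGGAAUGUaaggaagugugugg
Of the 37 members, Cpt1a alone holds a match to this seed in its longest annotated 3′ UTR (GENCODE M21, GRCm38). The match pairs with bases 2 to 8 and begins at base 1592 of the 1892 bases of that UTR. The stretch printed here ends with it, at chr19:3385410-3385439 (+ strand), and the capitals mark the bases complementary to the seed.
Cpt1a site: attcctgctagtacccaagtgtgACATTCC
A match to bases 2 to 8 was present in 2.7% of members and in 10.1% of 20890 protein-coding genes with a 3′ UTR. Counting also matches to bases 2 to 7 followed by A, the share stayed at 2.7% of members and was 16.9% of all such genes. The members' UTRs were shorter, with a median of 595 bases against 963.

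All 37 genes fell in the miR-206 libraries in the fit to the counts as deposited, but the size of the difference depended on the scale, and on each of 2 other scales 7 members lay above 0. Their summed CPM was 4227, 11880 and 11130 in controls 1 to 3 and 2247, 1394 and 1651 in miR-206 libraries 1 to 3. All 37 fell (edgeR quasi-likelihood test, TMM normalisation, Benjamini-Hochberg adjusted p under 0.05) and none rose, while 29.6% of 24382 genes tested fell and 25.8% rose. The median member was at a log2 fold change of -3.40, from -4.83 for Ehhadh to -1.36 for Acsl3. The median over all genes tested was 0.45, a distance of -3.85. That distance depended on the genes kept. It was -4.38 with no filter, -2.86 with nuclear protein-coding genes alone and -2.05 with at least 50 counts in 3 libraries. On CPM alone, without a test, 30 members lay below all controls in each miR-206 library, against 16.8% of all genes tested. CPM includes the mitochondrial counts. Per exonic length, scaled to nuclear protein-coding genes alone, some of those 30 overlapped. They were Acsl1, Cpt2, Crot, Decr1, Decr2, Etfdh, Acaa1a and Hacl1, each higher in miR-206 library 2 than in the lowest control. The CPM ranges of Acsl3, Acsl4, Acsl5, Slc27a2, Hadhb, Acox2 and Acox3 overlapped between groups.

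**Figure D1:**
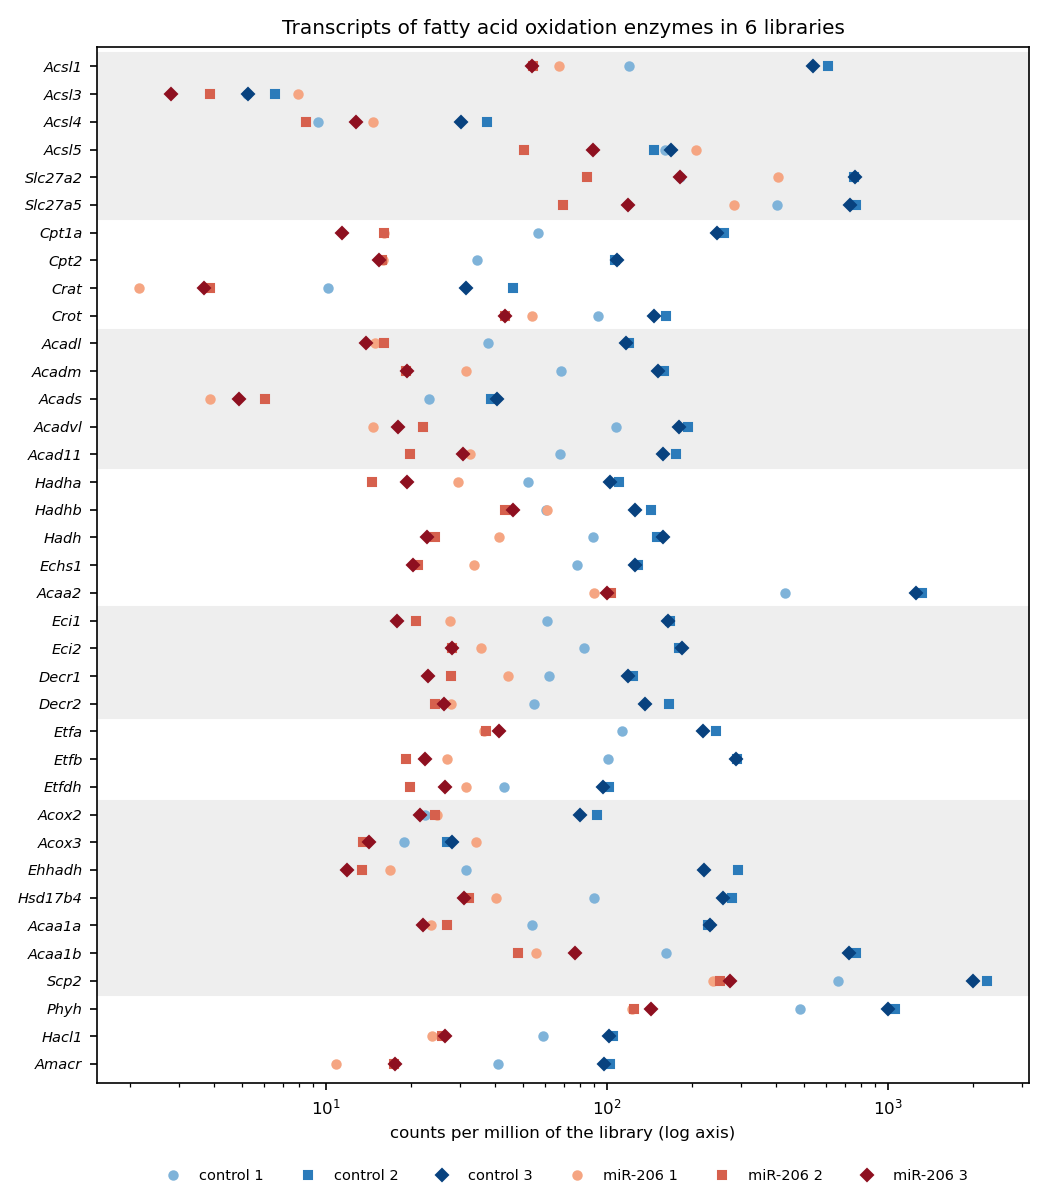
CPM of each of the 37 genes (log axis) in each library, with genes ordered by step (shaded bands) and libraries marked by colour and symbol. Control 1 lies under controls 2 and 3 for 36 genes, and 7 genes overlap between the groups.

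A pair of other scales was applied, and far fewer genes passed on either. Scaling each library on its 29 hepatocyte identity genes left 9 members that fell, namely Acsl1, Slc27a5, Cpt1a, Acadvl, Acaa2, Etfb, Ehhadh, Acaa1b and Phyh, against 2.79% of all genes tested. None rose, against 62.3% of all genes. This scale sets the average change of those 29 genes to 0 by construction. The members' median was then -0.72 and that of all genes 2.63. The other scale subtracted the receptor background per exonic kb and kept nuclear protein-coding genes with mean counts of at least 10 times that background. Of 35 members tested so, 10 fell, namely Cpt1a, Crat, Acadm, Acadvl, Acad11, Hadha, Echs1, Acaa2, Etfb and Ehhadh, against 15.7% of 4298 genes, and none rose, against 19.5%. Their median was -0.68 and that of all genes -0.12. Acsl3 and Acox3 did not reach the minimum. That minimum is a mean over all libraries. In the miR-206 libraries alone 23 of the 35 members were under 10 times background, as were 8 of the 10 that fell. Those 8 therefore passed it through their high controls. In those libraries 80.2% of all 4298 genes tested and 78.4% of all that fell missed that minimum, against 65.7% and 80% of members. Of the 10, Acaa2 and Etfb alone reached it in both groups. Counts of members that fell after subtraction, here and for each step below, are given as a description and not as support.

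Cpt1a, Acadvl, Acaa2, Etfb and Ehhadh fell on all 3 scales, as did 11.1% of the 4298 genes, but Cpt1a (1.95 times background in miR-206 libraries), Ehhadh (4.84 times) and Acadvl (7.18 times) entered the subtracted fit through their controls. The subtracted counts were fragile: leaving out 1 library gave 16 members that fell without control 1, 3 without control 2, 2 without control 3, 5 without miR-206 1, 8 without miR-206 2 and 1 without miR-206 3. On the hepatocyte scale the same omissions gave 19, 6, 7, 5, 21 and 5. Of the 5 genes, Cpt1a stayed past the threshold in 5 of 6 such subtracted fits, Etfb in 4, Acadvl in 3, Acaa2 in 2 and Ehhadh in 1. The background was first measured with receptor pseudogenes included, and that set was replaced after its result was seen: it gave 9 members that fell and 1 that rose. The members that changed sides were Acadm (adjusted p = 0.0553 first and 0.0483 afterwards) and Acsl5 (0.0498 and 0.0530), both from edgeR with Benjamini-Hochberg adjustment, so either is borderline.

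**Figure D2:**
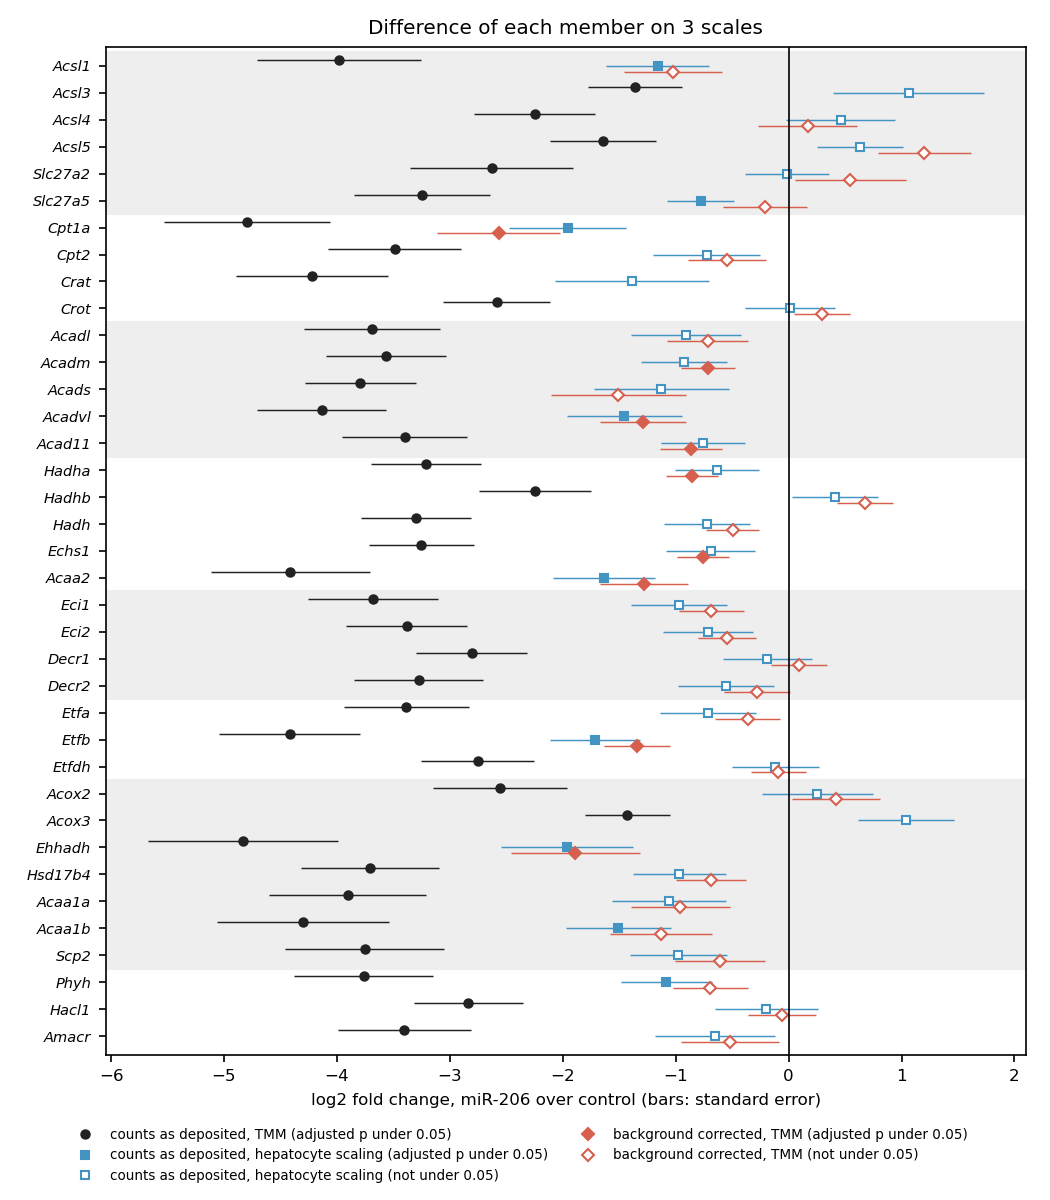
Log2 fold change of each gene, miR-206 over control, on 3 scales, with bars for the standard error and filled symbols for an adjusted p under 0.05. Crat after subtraction is left out because all its miR-206 counts lie at or under the background; as deposited all 37 points lie under 0, and on the other scales most lie nearer to 0.

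Members stood closer to background in the miR-206 libraries than in the controls. A member's counts over those expected from receptor density had a median of 227 times in controls and 6.60 times in miR-206 libraries, where they ran from 0.643 to 77.2 times. In the miR-206 libraries 11 members were under 5 times and 4 of them, Acsl3, Cpt1a, Crat and Acox3, under 2 times the background. Background made up 0.130 to 1.31% of the members' summed counts in controls and 8.83 to 9.58% in miR-206 libraries. Of the counts of all nuclear protein-coding genes it made up more, 0.979 to 5.49% in controls and 15.4 to 24.15% in miR-206 libraries. After subtraction the members held 0.756, 1.36 and 1.30% of nuclear protein-coding counts in controls and 0.294, 0.549 and 0.409% in miR-206 libraries, so the groups did not overlap.

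**Figure D3:**
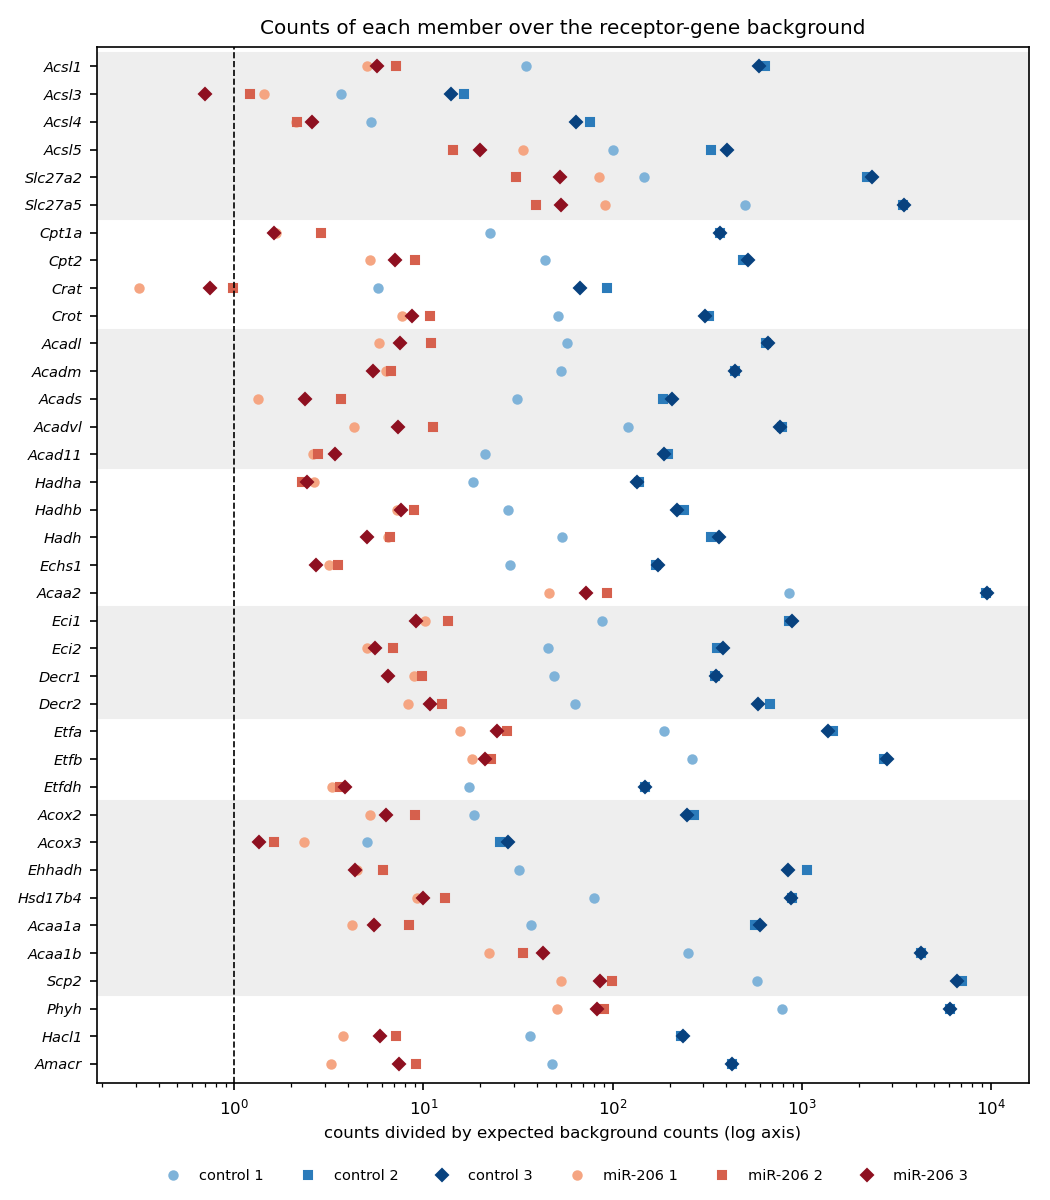
Counts of each gene divided by the counts expected from the receptor background (log axis, dashed line at equality), by library. Controls 2 and 3 lie far to the right, control 1 between the groups, and Acsl3, Cpt1a, Crat and Acox3 lie nearest the line when the 3 miR-206 libraries are summed, while single libraries put other genes, such as Acads in miR-206 library 1, as near.

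The 6 activating enzymes had the highest median of any step as deposited and after subtraction. All 6 fell as deposited (median -2.44), 2 of them fell on the hepatocyte scale and none of 5 tested fell after subtraction (median 0.17). Acsl1, the main long-chain acyl-CoA synthetase of liver, stood at 119.7, 612 and 540.2 CPM in controls 1 to 3 and 67.1, 54.5 and 54.1 CPM in miR-206 libraries 1 to 3. In CPM all its miR-206 libraries lay under all controls, with control 1 the nearest. Per exonic length miR-206 library 2 (49.5) lay above control 1 (46.9). Its log2 fold change was -3.98 ± 0.73 (adjusted p = 0.00161) (log2 ± standard error, as for all changes below) in the edgeR fit as deposited and -1.02 ± 0.44 (adjusted p = 0.1) after subtraction. Acsl3, a synthetase tied to lipid droplets, stood at 5.24, 6.56 and 5.26 CPM in controls 1 to 3 and 7.94, 3.85 and 2.79 CPM in miR-206 libraries 1 to 3. The groups overlapped, miR-206 library 1 was the highest of all, and the counts were 1.10 times background in the miR-206 libraries. Its change as deposited was -1.36 ± 0.42 (adjusted p = 0.0199) in edgeR, and on the hepatocyte scale the sign turned, at 1.06 ± 0.67 (adjusted p = 0.175).

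Acsl4, which prefers arachidonic acid, stood at 25.7 ± 14.6 CPM in controls against 11.98 ± 3.16 CPM in miR-206 libraries (SD, n = 3 each, as for all means below). It was at -2.25 as deposited, where it fell, and at 0.17 after subtraction, not past the threshold. Acsl5, a synthetase of mitochondria and endoplasmic reticulum, stood at 160.5, 147 and 169 CPM in controls 1 to 3 and 208, 50.6 and 88.7 CPM in miR-206 libraries 1 to 3, and miR-206 library 1 was above every control. It fell as deposited, at -1.64 ± 0.47 (adjusted p = 0.0139) in edgeR, and stood at 1.20 ± 0.41 (adjusted p = 0.053) after subtraction, the highest subtracted value of any member. Slc27a2, a very long chain acyl-CoA synthetase and transporter, stood at 567 ± 335 CPM in controls against 224 ± 165 CPM in miR-206 libraries, and Slc27a2 was at -2.63 as deposited and 0.55 after subtraction. Slc27a5, the bile acid and very long chain acyl-CoA ligase, stood at 633 ± 201 CPM in controls against 157 ± 112 CPM in miR-206 libraries, and Slc27a5 was at -3.25 and -0.21. Neither passed after subtraction. Per exonic length, scaled to the same sum over nuclear protein-coding genes in each library, Slc27a5 was the most abundant of the 6, at 720.5 ± 37.6 in controls and 299.5 ± 41.3 in miR-206 libraries, and Acsl3 the least, at 3.83 ± 1.02 in controls and 5.84 ± 2.39 in miR-206 libraries.

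The 4 carnitine transferases fell as deposited (median -3.85), and Cpt1a had the lowest fold change of them. After subtraction Cpt1a and Crat passed the test, and both had met the background minimum through their controls alone. Cpt1a encodes the outer-membrane carnitine palmitoyltransferase, the malonyl-CoA-sensitive entry step of mitochondrial oxidation, and spans chr19:3322334-3385733 on the + strand. Cpt1a stood at 56.8, 259 and 246 CPM in controls 1 to 3 and 16.1, 16.0 and 11.4 CPM in miR-206 libraries 1 to 3. The groups were apart in every library, and control 1 was below the other controls. The change was -4.80 ± 0.73 (adjusted p = 0.000652) in edgeR as deposited, -1.96 ± 0.52 (adjusted p = 0.00823) on the hepatocyte scale and -2.57 ± 0.55 (adjusted p = 0.0124) after subtraction. These rest on counts of 1.95 times background in the miR-206 libraries, and without one of the 6 libraries the subtracted value ran from -3.28 to -2.30. This gene holds the seed match printed above, and whether the match contributes was not tested.

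Cpt2, the inner-membrane partner of Cpt1a, stood at 82.97 ± 42.1 CPM in controls against 15.7 ± 0.269 CPM in miR-206 libraries and fell as deposited (-3.49), and was at -0.54 ± 0.34 (adjusted p = 0.244) in edgeR after subtraction. Crat, the acetyl-carnitine enzyme, stood at 29.2 ± 18.1 CPM in controls against 3.23 ± 0.924 CPM in miR-206 libraries. Its miR-206 counts were 0.643 times background, at or under it in all 3 libraries, so that no fold is given for it after subtraction and its call there says only that the counts were not above background. Crot, which makes carnitine esters of medium chains leaving the peroxisome, stood at 92.6, 161 and 146 CPM in controls 1 to 3 and 53.9, 43.3 and 43.1 CPM in miR-206 libraries 1 to 3. It fell as deposited, at -2.59 ± 0.47 (adjusted p = 0.00152) in edgeR, and was at 0.30 ± 0.24 (adjusted p = 0.366) after subtraction.

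The 5 acyl-CoA dehydrogenases, which carry out the first oxidation, all fell as deposited, within -4.14 and -3.40, and 3 of 5 fell after subtraction (median -0.86). Acadvl, for very long chains, stood at 107, 194 and 179.7 CPM in controls 1 to 3 and 14.7, 22.1 and 17.99 CPM in miR-206 libraries 1 to 3. Every miR-206 library was under every control. Its change was -4.14 ± 0.57 (adjusted p = 0.000438) as deposited, -1.46 ± 0.51 (adjusted p = 0.0276) on the hepatocyte scale and -1.29 ± 0.38 (adjusted p = 0.0322) after subtraction in edgeR. Of its exonic bases, 42.9% are shared with Dvl2 on the opposite strand, and since strand use in counting is not given, its reads are uncertain. Acad11, a dehydrogenase of long and very long chains, stood at 67.9, 176 and 158 CPM in controls 1 to 3 and 32.5, 19.8 and 30.6 CPM in miR-206 libraries 1 to 3. Its groups were apart too, and the change was -3.40 ± 0.55 (adjusted p = 0.000847) as deposited and -0.86 ± 0.28 (adjusted p = 0.0432) after subtraction in edgeR.

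Acadm, the medium-chain dehydrogenase, stood at 126 ± 50.01 CPM in controls against 23.4 ± 7.04 CPM in miR-206 libraries and was at -0.71 ± 0.24 (adjusted p = 0.0483) after subtraction in edgeR. Acadl, for long chains, stood at 91.1 ± 46.4 CPM in controls against 14.9 ± 1.10 CPM in miR-206 libraries, and Acads, for short chains, at 34.02 ± 9.43 CPM in controls against 4.94 ± 1.11 CPM in miR-206 libraries. After subtraction these were at -0.72 ± 0.36 (adjusted p = 0.147) and -1.51 ± 0.60 (adjusted p = 0.0818) in edgeR, and neither passed.

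Among the 5 mitochondrial enzymes of hydration, second oxidation and thiolysis, the thiolase Acaa2 and the trifunctional protein subunit Hadhb were farthest apart. Acaa2, the mitochondrial 3-ketoacyl-CoA thiolase, stood at 429, 1313 and 1251 CPM in controls 1 to 3 and 89.5, 103 and 99.9 CPM in miR-206 libraries 1 to 3. In CPM the miR-206 libraries were close to each other and all below control 1. Per exonic length Acaa2 varied more between them, at 176, 648.5 and 378, again all below control 1 (1164). Its change was -4.41 ± 0.70 (adjusted p = 0.000785) as deposited and -1.28 ± 0.39 (adjusted p = 0.0367) after subtraction in edgeR. Per exonic length Acaa2 was at 1749 ± 507 in controls and 401 ± 237 in miR-206 libraries, the highest mean of any member in controls. Hadhb, the beta subunit that carries the thiolase activity of the trifunctional protein, stood at 60.6, 143 and 126 CPM in controls 1 to 3 and 60.9, 43.1 and 46.1 CPM in miR-206 libraries 1 to 3. Its groups overlapped, because control 1 was at the level of miR-206 library 1. It fell as deposited, at -2.25 ± 0.50 (adjusted p = 0.00425), and was at 0.68 ± 0.25 (adjusted p = 0.0626) after subtraction in edgeR.

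Hadha, the alpha subunit of the same complex, lies next to Hadhb on chromosome 5 in the opposite orientation (chr5:30118304-30155162 and chr5:30155248-30184593). It stood at 52.4, 110.5 and 102 CPM in controls 1 to 3 and 29.3, 14.6 and 19.4 CPM in miR-206 libraries 1 to 3. The groups were apart for Hadha, which was at -3.21 ± 0.49 (adjusted p = 0.000629) as deposited and -0.86 ± 0.23 (adjusted p = 0.0257) after subtraction in edgeR. The difference between the subunits was not tested. Hadh, the dehydrogenase of medium and short 3-hydroxyacyl-CoA, stood at 132 ± 38.2 CPM in controls against 29.4 ± 10.2 CPM in miR-206 libraries. Hadh fell as deposited (-3.30) and was at -0.50 after subtraction, not past the threshold. Echs1, the short-chain hydratase, stood at 111 ± 28.2 CPM in controls against 25.04 ± 7.28 CPM in miR-206 libraries and was at -0.76 ± 0.23 (adjusted p = 0.0366) after subtraction in edgeR.

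The 4 isomerases and dienoyl-CoA reductases, needed for unsaturated chains, fell as deposited (median -3.33) and none fell after subtraction (median -0.41). Eci1, the mitochondrial enoyl-CoA isomerase, stood at 61.1, 168 and 164 CPM in controls 1 to 3 and 27.7, 20.9 and 17.8 CPM in miR-206 libraries 1 to 3. Its change was -3.68 ± 0.58 (adjusted p = 0.000721) as deposited and -0.68 ± 0.28 (adjusted p = 0.0943) after subtraction in edgeR. Decr1, the mitochondrial dienoyl-CoA reductase, stood at 62.1, 124 and 119 CPM in controls 1 to 3 and 44.2, 27.7 and 23.1 CPM in miR-206 libraries 1 to 3. In CPM both genes were lower in every miR-206 library, but per exonic length the groups overlapped for Decr1. Decr1 was at -2.81 ± 0.49 (adjusted p = 0.00122) as deposited and 0.10 ± 0.25 (adjusted p = 0.78) after subtraction in edgeR. Eci2, an isomerase of both organelles, stood at 149 ± 57.6 CPM in controls against 30.6 ± 4.37 CPM in miR-206 libraries, and Decr2, the peroxisomal reductase, at 119 ± 57.2 CPM in controls against 26.1 ± 1.80 CPM in miR-206 libraries. They were at -3.38 and -3.28 as deposited and at -0.55 and -0.28 after subtraction.

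The electron transfer flavoprotein passes electrons from the dehydrogenases to the respiratory chain. The changes of its subunits and of its oxidoreductase differed in size, and that difference was not tested. Etfb, the beta subunit, stood at 100.5, 289 and 287 CPM in controls 1 to 3 and 26.9, 19.2 and 22.5 CPM in miR-206 libraries 1 to 3. The groups were apart, with control 1 well under the others. Its change was -4.42 ± 0.62 (adjusted p = 0.000463) as deposited, -1.71 ± 0.40 (adjusted p = 0.0044) on the hepatocyte scale and -1.34 ± 0.29 (adjusted p = 0.0131) after subtraction in edgeR. Exons of Gm45233 and Mir7051 share 58.2% of its exonic bases on the same strand, so its reads may be split. Etfa, the alpha subunit, stood at 192 ± 70.1 CPM in controls against 38.2 ± 2.46 CPM in miR-206 libraries and was at -0.36 ± 0.29 (adjusted p = 0.354) after subtraction in edgeR. Etfdh, the oxidoreductase that takes electrons from the flavoprotein, stood at 42.9, 101 and 96.9 CPM in controls 1 to 3 and 31.5, 19.8 and 26.4 CPM in miR-206 libraries 1 to 3. It too was lower in every miR-206 library in CPM, but its groups overlapped per exonic length. Etfdh was at -2.75 ± 0.50 (adjusted p = 0.00149) as deposited and -0.09 ± 0.24 (adjusted p = 0.782) after subtraction in edgeR.

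In peroxisomal beta-oxidation 7 of 7 genes fell as deposited (median -3.75) and 1 of 6 after subtraction (median -0.83). Ehhadh, the bifunctional hydratase and dehydrogenase, stood at 31.3, 291 and 220.2 CPM in controls 1 to 3 and 16.8, 13.4 and 11.9 CPM in miR-206 libraries 1 to 3. Control 1 lay far under the other controls, whose mean was 8.16 times its level, the widest such gap of any member. The change was -4.83 ± 0.84 (adjusted p = 0.00123) as deposited, -1.96 ± 0.58 (adjusted p = 0.0135) on the hepatocyte scale and -1.89 ± 0.57 (adjusted p = 0.0353) after subtraction in edgeR. Acox3, an oxidase of branched chains, stood at 18.96, 26.9 and 28.1 CPM in controls 1 to 3 and 34.1, 13.6 and 14.2 CPM in miR-206 libraries 1 to 3. Its groups overlapped and its miR-206 counts were 1.78 times background. The change was -1.43 ± 0.37 (adjusted p = 0.00963) as deposited, and on the hepatocyte scale the sign turned, at 1.04 ± 0.43 (adjusted p = 0.0516) in edgeR.

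Acox2, the oxidase of bile acid precursors, stood at 64.6 ± 37.05 CPM in controls against 23.5 ± 1.77 CPM in miR-206 libraries, and Hsd17b4, the other bifunctional protein, at 208 ± 103 CPM in controls against 34.4 ± 5.01 CPM in miR-206 libraries. Scp2, whose gene encodes a thiolase and a sterol carrier protein, stood at 1632 ± 849 CPM in controls against 254 ± 18.4 CPM in miR-206 libraries. Acaa1a and Acaa1b are close paralogs of the straight-chain thiolase, so their reads may be split between them. They stood at 171 ± 102 CPM in controls against 24.2 ± 2.51 CPM in miR-206 libraries and at 551 ± 338 CPM in controls against 60.1 ± 14.7 CPM in miR-206 libraries respectively. As deposited Acox2 was at -2.55, Hsd17b4 at -3.71, Scp2 at -3.75, Acaa1a at -3.91 and Acaa1b at -4.30, and all 5 fell. After subtraction none of these 5 passed: Acox2 was at 0.42, Hsd17b4 at -0.69, Scp2 at -0.61, Acaa1a at -0.96 and Acaa1b at -1.13.

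All 3 genes of alpha-oxidation and racemisation fell as deposited (median -3.40), and none fell after subtraction (median -0.52). Phyh, the phytanoyl-CoA hydroxylase that opens alpha-oxidation, stood at 487, 1055 and 1001 CPM in controls 1 to 3 and 122, 124 and 143 CPM in miR-206 libraries 1 to 3. Its groups were apart, and it was at -3.76 ± 0.62 (adjusted p = 0.000901) as deposited and -0.69 ± 0.33 (adjusted p = 0.136) after subtraction in edgeR. Hacl1, the lyase that follows, stood at 59.2, 104 and 102 CPM in controls 1 to 3 and 23.8, 25.9 and 26.6 CPM in miR-206 libraries 1 to 3. It was at -2.84 ± 0.48 (adjusted p = 0.0011) as deposited and -0.06 ± 0.30 (adjusted p = 0.892) after subtraction in edgeR, and 33.3% of its exonic bases overlap other genes. Amacr, the racemase of branched chains, stood at 80.02 ± 34.1 CPM in controls against 15.3 ± 3.87 CPM in miR-206 libraries, at -3.40 as deposited and -0.52 after subtraction. By organelle, the medians after subtraction were -0.72 for 17 mitochondrial genes, -0.65 for 10 peroxisomal genes and -0.55 for 3 genes of both organelles. Of these 8, 1 and 1 fell, the 8 including Crat and Cpt1a near background, where 15.7% of all genes fell. All that fell except Acaa2 and Etfb met the background minimum through their controls alone, so these counts are a description only. The difference between organelles was not tested.

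Shares within the pathway do not depend on how libraries are scaled. Of the counts summed over the 37 genes, 7 members held a larger share in each miR-206 library than in any control (Acsl3, Acsl4, Crot, Hadhb, Etfdh, Acox2 and Acox3), where the same ratio to that sum was higher for 81.2% of all genes tested. A smaller share in every miR-206 library was found for Cpt1a, Acadvl, Acaa2 and Etfb, against 1.69% of all genes, and the other 26 overlapped. The members' own sum, by which all genes were divided, was lower in miR-206 libraries, and member shares must add up to the whole. Figures over all genes on this ratio, here and in the rest of the paragraph, are therefore no baseline for members. Hadhb took 1.43, 1.21 and 1.13% in controls 1 to 3 and 2.71, 3.09 and 2.79% in miR-206 libraries 1 to 3. Hadha took 1.24, 0.93 and 0.916% in controls 1 to 3 and 1.31, 1.05 and 1.17% in miR-206 libraries 1 to 3, and its groups overlapped. After subtraction Hadha took 1.19, 0.925 and 0.911% in controls and 0.894, 0.646 and 0.760% in miR-206 libraries, all lower, so that its direction turned with the background. Etfb took 2.38, 2.43 and 2.58% in controls 1 to 3 and 1.20, 1.38 and 1.36% in miR-206 libraries 1 to 3. Acaa2 took 10.2, 11.1 and 11.2% in controls 1 to 3 and 3.98, 7.41 and 6.05% in miR-206 libraries 1 to 3, and in both cases every miR-206 library was lower. Cpt1a took 1.34, 2.18 and 2.21% in controls 1 to 3 and 0.717, 1.15 and 0.688% in miR-206 libraries 1 to 3. After the background was subtracted, 5 of the 7 stayed higher (Acsl4, Crot, Hadhb, Etfdh and Acox2), against 31.3% of the 4298 genes on the same ratio. All 4 stayed lower and Crat, Acadm and Hadha joined them, which makes 7 lower, against 15.4% of those genes. Without control 1 the number of members whose shares did not overlap went from 11 to 21, and without miR-206 2 to 19. Over all genes tested the same share was 82.9% with all libraries, 92.8% without control 1 and 86.2% without miR-206 2.

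The step shares differed most in miR-206 library 1. The activating enzymes took 20.8, 19.6 and 20.2% of the members' counts in controls 1 to 3 and 43.9, 19.5 and 27.8% in miR-206 libraries 1 to 3. In miR-206 library 1, Slc27a2 alone took 18.1%, Slc27a5 12.6% and Acsl5 9.24%. Peroxisomal beta-oxidation took 24.6, 33.0 and 31.8% in controls and 19.3, 29.4 and 27.3% in miR-206 libraries, which overlap. Scp2 alone averaged 17.5% in controls and 15.1% in miR-206 libraries. Mitochondrial hydration, second oxidation and thiolysis took 16.8, 15.5 and 15.8% in controls and 11.3, 14.8 and 12.6% in miR-206 libraries, without overlap. Of that step Acaa2 averaged 10.8% in controls and 5.81% in miR-206 libraries. All mitochondrial members took 33.7, 31.1 and 31.65% in controls and 23.15, 30.9 and 25.8% in miR-206 libraries, narrowly without overlap.

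**Figure D4:**
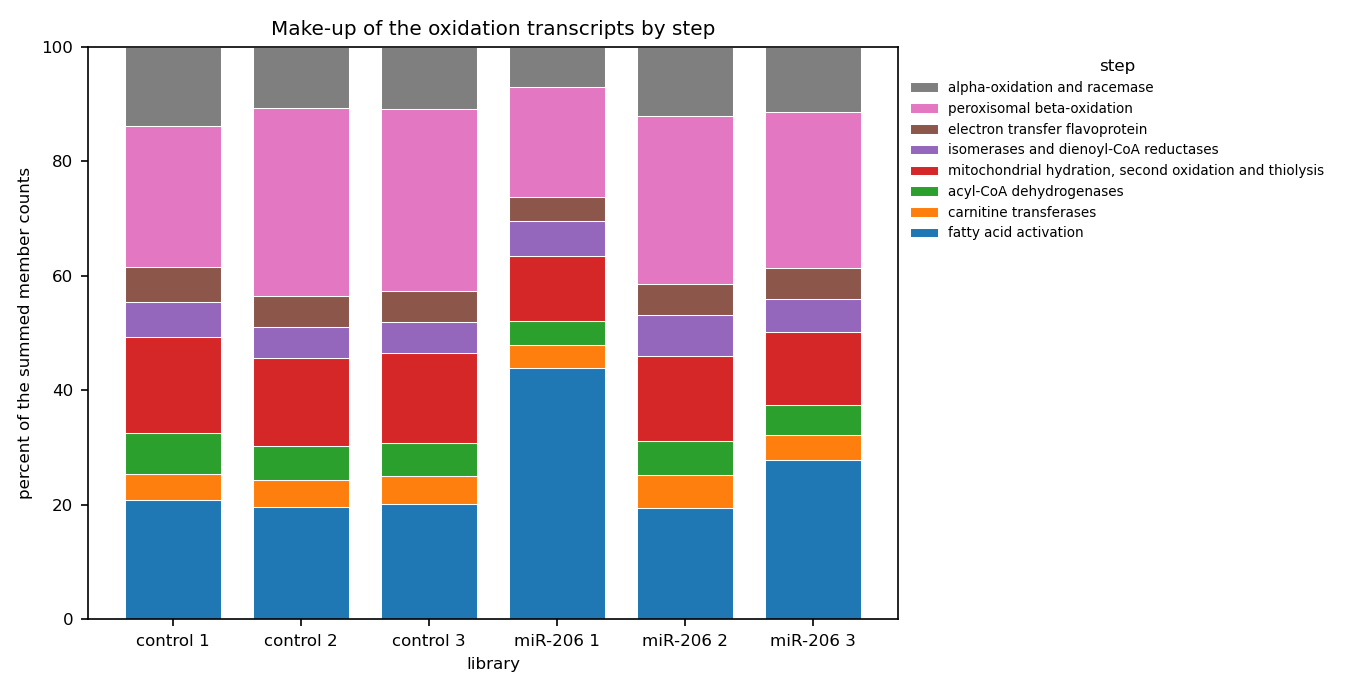
Share of each step in the summed counts of the 37 genes (percent, stacked bars), by library. The activating enzymes reach 43.9% in miR-206 library 1 and stay between 19.5 and 27.8% in the other 5 libraries.

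Because members differed together, promoters were searched for the PPARA half-site repeat, AGGTCANAGGTCA, on both strands, in the 300 bases from 250 before to 50 after each RefSeq start (GRCm38.p6). For 31 member genes 33 promoters were listed. With at most 2 mismatches 3 of them (9.09%) held a match, against 3.86% of 32851 promoters, and with at most 1 mismatch none did, against 0.554%. The matches are shown as they read on the gene's strand, in capitals throughout, and that of Etfa is to the reverse complement.
Acox2, at 9 from the start: AGGACAGAGGTGA
Echs1, at -83: AGGTCACGGGTCC
Etfa, at -77: TTACCTTTGCCCT
A match of letters is a description and no evidence of binding.

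Genes around the pathway were counted from lists of their own. Over all genes tested 29.6% fell and 25.8% rose as deposited, and 15.7% fell and 19.5% rose of 4298 after subtraction. As for the members, counts after subtraction are a description and not support, since genes can meet the background minimum through their controls. Of 24 other oxidation enzymes and carriers tested, 20 fell and 2 rose as deposited, and 5 fell and 1 rose of 13 tested after subtraction. The 4 with the smallest p as deposited were Nudt19 (-4.33), a peroxisomal CoA hydrolase, Ech1 (-4.11), a dienoyl-CoA isomerase, Hsd17b10 (-3.85), of branched-chain oxidation, and Slc27a1 (-2.39), a fatty acid transporter. Of these Ech1 (-1.17), Hsd17b10 (-0.89) and Nudt19 (-3.05, at 1.24 times background in miR-206 libraries) also fell after subtraction, and Slc27a1 was not tested. Chosen after their values were seen, others that passed were Mlycd (-2.32, at 1.69 times background), which fell after subtraction, Acsm5 (1.08), which rose after it, and Cpt1c (1.49) and Acsl6 (1.70), which rose as deposited at 2.27 and 0.948 times background in miR-206 libraries. Of 10 acyl-CoA thioesterases 8 fell and none rose, led by Acot13 (-3.98), Acot7 (-2.55), Acot8 (-2.92) and Acot1. Acot1 was at 0.415 times background in miR-206 libraries, so no fold is given. After subtraction 2 of 5 thioesterases passed, Acot13 (-1.07, at 8.55 times background in miR-206 libraries) and Acot1.

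Of 23 genes of the peroxisomal membrane and import machinery, 19 fell and none rose as deposited, where 29.6% of all genes fell. Of 15 tested after subtraction 2 fell and 1 rose, where 15.7% of all genes fell and 19.5% rose. Among those with the smallest p were Pex2 (-3.49), of the import machinery, and Abcd3 (-4.02), the carrier of branched and bile acid CoA esters. Pex2 (-1.12) and Abcd3 (-1.14) also fell after subtraction, at 2.90 and 6.25 times background in miR-206 libraries. Pex19 (0.90), chosen after its value was seen, rose. Among regulators and other targets of Ppara, 15 of 16 fell and none rose as deposited, led by Nr0b2 (-3.22), Rxrb (-3.53), Sirt3 (-2.93) and Creb3l3 (-4.06). Rxrb was at 0.854 times background in miR-206 libraries. After subtraction none of 11 fell and those 4 did not pass, while Vnn1 (1.53), Cd36 (1.23) and Ncor1 (0.96), chosen after their values were seen, rose.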

How the data were processed

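Raw counts per gene were deposited by the authors in a single table for 6 libraries, with no normalisation, per the file headers and the whole-number values. The builds GRCm38 and mm10 are named in the submitters' processing notes, whereas the aligner, counter, annotation and strandedness were not given in the sources used here. The labels' protocols name a SMARTER mRNA-Seq kit.

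Genes kept by filterByExpr (minimum count 10) were scaled by TMM. Each was tested in R 4.3.3 by quasi-likelihood F tests from edgeR 4.0.16 (robust, group only), with Benjamini-Hochberg adjustment over all genes tested and a threshold of 0.05. The replicate number was not used as a block in the main fit, because the labels do not say that it marks a mouse. Deviations of same-numbered libraries correlated at -0.006 to 0.026, which in so few libraries cannot show that pairing is absent. A fit with the replicate block was an alternative. DESeq2 1.42.0 was an alternative. The fit was tested on simulated data: it recovered nearly all large changes and far fewer moderate ones, and the criterion for passing was narrowed to the large changes after the first, over all sizes, was missed. A member that did not pass is therefore not shown to be unchanged.

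Background counts came from 1431 protein-coding receptor genes (5264 exonic kb); 49056 of the genes matched GENCODE M21. The first version used 1913 receptor genes, pseudogenes included (5756 kb), and was replaced after its result was seen. The minimum of 10 times background is an average over all libraries, so a gene can pass through its controls. Hepatocyte scaling used the geometric mean of 29 genes. The marker counts named in the text are not tests of cell makeup.

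The members and lists were chosen with earlier results of these data known. All members are named, with values in every library for the highest and lowest change in each step. From every other list the 4 genes with the smallest p are named, except a few that are not reported here. Acsl5, Hadha, Clec4f, Spp1 and Krt19 have values by library that were added after they were seen. Intervals on counts are not printed, and depth limits the precision most in the miR-206 libraries.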

Additional observations from a re-analysis of the deposited data

How the results depend on the processing

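On the counts as deposited, 37 members fell in the fits by DESeq2, RLE factors, no filter, the non-robust fit and the replicate block, and 32 to 36 with upper-quartile factors, library size alone, at least 50 counts or protein-coding genes alone. Leaving out 1 library gave 34 to 37. The number was 9 with hepatocyte scaling, 10 with background corrected and 11 (with 1 that rose) with the replicate block and background corrected together. Over all genes, 3774 fell with library size alone, 680 with hepatocyte scaling, 3675 with at least 50 counts, 675 with background corrected and 663 with the block as well, and 6697 with the replicate block alone, which kept 37 members. Genes that rose numbered 10629 (upper-quartile factors), 11642 (library size alone), 15200 (hepatocyte scaling), 3390 (at least 50 counts), 838 (background corrected), 812 (with the block) and 1916 to 10674 when 1 library was left out.

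After background correction the members that fell numbered 18 with library size alone, 18 with hepatocyte scaling, 23 with a minimum of 5 times background, 3 with 20 times, 9 with receptor pseudogenes included and 1 to 16 when 1 library was left out. Members that rose numbered 1 (upper-quartile factors), 2 (20 times), 1 (replicate block), 1 (pseudogenes included) and 0 to 1 on leaving out a library. With hepatocyte scaling 5 to 21 fell and 0 to 3 rose when 1 library was left out. Shares that did not overlap numbered 11 to 21 on leaving out a library.

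Signs turned under hepatocyte scaling, background correction and the latter with the replicate block, in that order, for Acox2 (0.25, 0.42, 0.48), Acsl4 (0.46, 0.17, 0.28), Acsl5 (0.63, 1.20, 1.16), Crot (0.014, 0.30, 0.28) and Hadhb (0.41, 0.68, 0.69). For Decr1 (0.095, 0.076) and Slc27a2 (0.55, 0.51) they turned under the last 2, and for Acox3 (1.04) and Acsl3 (1.06) under hepatocyte scaling. The cause was not tested. No other library-scaling alternative turned a sign.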

Other observations

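Lists next to the pathway were counted with the same edgeR fits. Over all genes tested 29.6% fell and 25.8% rose as deposited, and 15.7% fell and 19.5% rose of 4298 after subtraction. Counts after subtraction are again a description and not support, since genes can meet the background minimum through their controls. All 6 ketone body enzymes fell as deposited (median log2 fold change -3.34), and 2 of 4 tested after subtraction. Bdh1, the hydroxybutyrate dehydrogenase, passed on both (-3.47 and -0.97), at 2.78 times background in miR-206 libraries. Acat1 (-3.26 and -0.37) passed as deposited alone. Of 6 Cyp4a fatty acid hydroxylases 5 fell as deposited, and after subtraction 1 fell and 1 rose, Cyp4a31 (2.04), chosen after its value was seen. Cyp4a10 was at -6.26 and -3.29 and passed on both, at 4.89 times background in miR-206 libraries. Cyp4a12b (-3.06 and -0.10), Cyp4a32 (-3.37 and -0.72) and Cyp4a12a (-2.90 and 0.22) passed as deposited and not after subtraction.

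All 17 fatty acid synthesis enzymes fell as deposited, where 29.6% of all genes fell. After subtraction 2 fell and 3 rose of 15, where 15.7% of all genes fell and 19.5% rose. Fasn (-3.56 and -1.59) and Hacd3 (-3.65 and -0.79) passed on both, at 2.09 and 7.07 times background in miR-206 libraries. Acly (-3.09 and -0.47) and Fads2 (-3.34 and -0.45) passed as deposited alone. Elovl3 (1.16), Hsd17b12 (1.07) and Acss2 (0.80), chosen after their values were seen, rose after subtraction. All 18 citric acid cycle enzymes fell as deposited (median -3.30), and 5 fell and none rose after subtraction, against the same shares of all genes. Idh2 (-3.58 and -0.93), Mdh2 (-3.95 and -1.13) and Idh3b (-4.00 and -1.31) passed on both. In miR-206 libraries these were at 6.39, 6.37 and 4.25 times background. Sdhc (-3.44 and -0.66) passed as deposited alone. Chosen after their values were seen, Sdhb (-0.91) and Dlst (-3.005, at 1.20 times background in miR-206 libraries) also fell after subtraction.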
